A study of Mus musculus with 24 samples.

Results

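The comparison described here is that of 6 cKOf and 6 Ctrlf kidneys, 12 of the 24 kidneys of a study of Pex5 deletion in the renal tubule of mice. All kidneys labelled female were taken, and the genotype label set the group. The cKOf mice carried Pex5lox/lox together with Pax8-rtTA, which places a doxycycline-dependent activator in cells of the renal tubule, and LC1, the Cre transgene that responds to it. The Ctrlf mice were Pex5lox/lox littermates without these transgenes, so loss of Pex5 and presence of the transgenes cannot be told apart. Both groups were on the C57BL/6J background, had doxycycline (DOX) at 8 weeks of age over a span of 2 weeks, and their kidneys were taken 4 weeks after it ended. RNA came from the whole kidney, and Pax8-rtTA acts in tubule cells alone, so that the other kidney cells are not targeted. The protocol in the labels gives ZT9 (hours after lights on) for tissue collection and ZT3 for experiments.

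Peroxisomes shorten very-long-chain and branched fatty acids, break down hydrogen peroxide and D-amino acids, and carry out early steps of plasmalogen synthesis. Their matrix enzymes are made in the cytosol and imported by PEX5, the receptor that recognises the peroxisomal targeting signals. The proximal tubule is among the tissues richest in peroxisomes. Fatty acids are natural ligands of PPAR alpha, a nuclear receptor that binds DNA as a heterodimer with RXR and drives genes of fatty acid oxidation and omega-hydroxylation. Cyp4a enzymes hydroxylate the far end of a fatty acid chain, ACOT enzymes release the free fatty acid from its CoA ester, and FABP1 carries fatty acids in the cytosol.

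Gene counts of the female kidneys summed to between 19376152 and 27401081 reads (median 21762162). A gene was tested if it reached 1 CPM (counts scaled to library size by TMM) in at least 6 of the 12 kidneys, which left 14035 genes. Fold changes are on the log2 scale, cKOf against Ctrlf. They were tested with edgeR (quasi-likelihood), with Benjamini-Hochberg adjustment over these genes. Each is given with its standard error (SE). Tubule markers were present as labelled, with summed proximal tubule markers from 7093 to 9369 CPM, and the sex labels matched Xist and 4 Y-linked genes in every kidney. Some libraries stood apart, and fits were repeated without Ctrlf mouse 1 (interferon-stimulated genes) and Ctrlf mouse 4 and cKOf mouse 6 (first principal component). Muscle markers were high in the latter 2, but also in Ctrlf mouse 5 and cKOf mice 1 and 4, which were left out only in further fits. Ctrlf mouse 6, high in adipocyte markers, was kept in these fits. Interferon-stimulated genes summed to 3525 CPM in Ctrlf mouse 1 and to between 513 and 704 in the other 11 kidneys. Skeletal muscle markers summed to 551 CPM in Ctrlf mouse 4 and to between 89.1 and 122 in Ctrlf mouse 5 and cKOf mice 1, 4 and 6, against at most 8.35 in the remaining kidneys, and adipocyte markers to 396 CPM in Ctrlf mouse 6 against at most 98.1 elsewhere. Hepatocyte markers, of which none was at 0 in all kidneys, ranged from 60.6 to 129 CPM in Ctrlf and from 52.6 to 132 in cKOf kidneys. In such bulk samples, fewer cells of a type and less RNA per cell cannot be told apart.

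**Figure D1:**
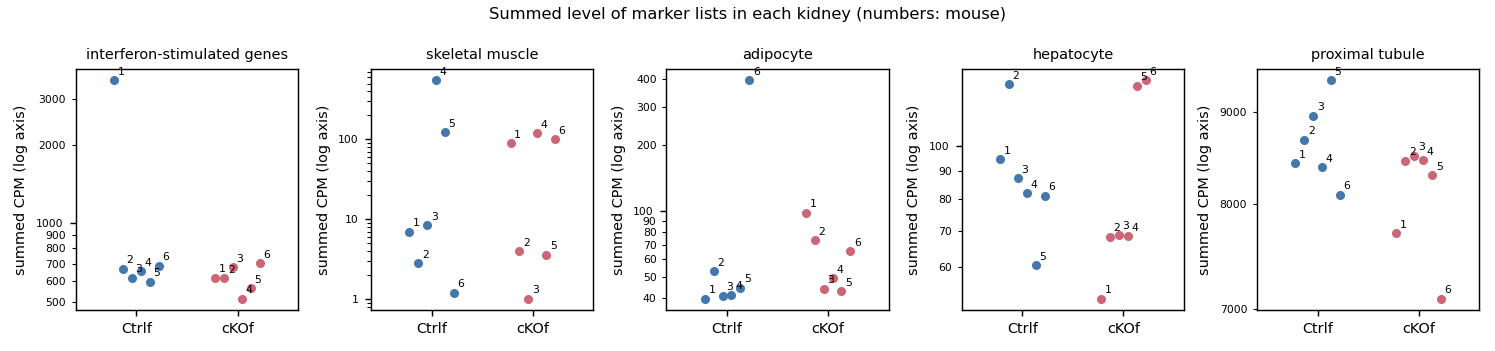
Summed CPM of 5 marker lists (log axis) in each of the 6 Ctrlf (blue) and 6 cKOf (red) kidneys, with the number of the mouse beside each point. Ctrlf mouse 1 lies at 3525 CPM of interferon-stimulated genes, Ctrlf mouse 4 at 551 CPM of muscle markers and Ctrlf mouse 6 at 396 CPM of adipocyte markers, while hepatocyte and proximal tubule markers overlap between the groups.

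Pex5, the targeted gene, lies on chromosome 6 of GRCm38 from 124396816 to 124415067 on the minus strand. Its level was between 44.1 and 64.2 CPM in Ctrlf kidneys (median 48.9) and between 38.5 and 49.8 CPM in cKOf kidneys (median 44.7). The groups overlapped, and 2 cKOf kidneys lay under every Ctrlf kidney. The mean was 51.5 ± 7.47 CPM in Ctrlf and 44.4 ± 3.86 CPM in cKOf kidneys (SD, n = 6 each), a log2 fold change of -0.21 ± 0.10 (SE, edgeR unadjusted p = 0.0458, edgeR adjusted p = 0.825, two-sided exact permutation p = 0.0541). Reads on all exons and from all kidney cells entered this count. In males the log2 fold change was -0.33 ± 0.07 (SE, edgeR adjusted p = 0.00411), and the test of the difference between the sexes gave 0.12 ± 0.12 (SE, edgeR adjusted p = 0.697). In female kidneys the lower Pex5 level did not pass the threshold adjusted over all 14035 genes. The paper reports significantly reduced Pex5 mRNA and lower PEX5 protein in cKOf kidneys, with some full-length mRNA left. By electron microscopy it found almost no peroxisomes in proximal tubules of cKOf mice. It also reports less plasmalogen in cKOf kidneys, and proposes that residual peroxisomes may be left in the female tubule.

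In cKOf kidneys, 24 of 14035 genes passed an adjusted p of 0.05, which is 0.171% of the genes tested. Of these, 16 were higher (0.114%) and 8 were lower (0.0570%) in cKOf kidneys. At an unadjusted p of 0.05, 837 genes passed (5.96%), 325 higher (2.32%) and 512 lower (3.65%). The 6 cKOf values lay entirely above or below the 6 Ctrlf values for 23 of the 24 genes, and for 85 of all tested genes (0.606%). Without the 5 libraries with high muscle markers 13 genes were called, 8 of them among the 24, and with these markers as a covariate 27 were called, all 24 among them. The former fit kept Ctrlf mice 1, 2, 3 and 6 and cKOf mice 2, 3 and 5, with the filter of 6 kidneys unchanged. Vmn1r32 and Cyp4a12b could not be tested there. The 8 genes that kept the call were Acot1, Acot3, Acsl3, Aldh1a1, Cyp4a10, Cyp4a14, Cyp4a31 and Gm6135. Whether fewer kidneys or the muscle markers set the lower count was not tested. The rises included 4 Cyp4a genes, the thioesterases Acot1 and Acot3, the peroxisomal thiolase Acaa1b, the acyl-CoA synthetase Acsl3, Fabp1, Ucp2 and Vnn1. The falls included Gpt2, Bhmt and Hpd. The next genes in order of p, chosen after their values were seen, were Insig1, Cyp2a5, Slc6a4 and Slc4a1, each with an edgeR adjusted p of 0.0559.

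**Figure D2:**
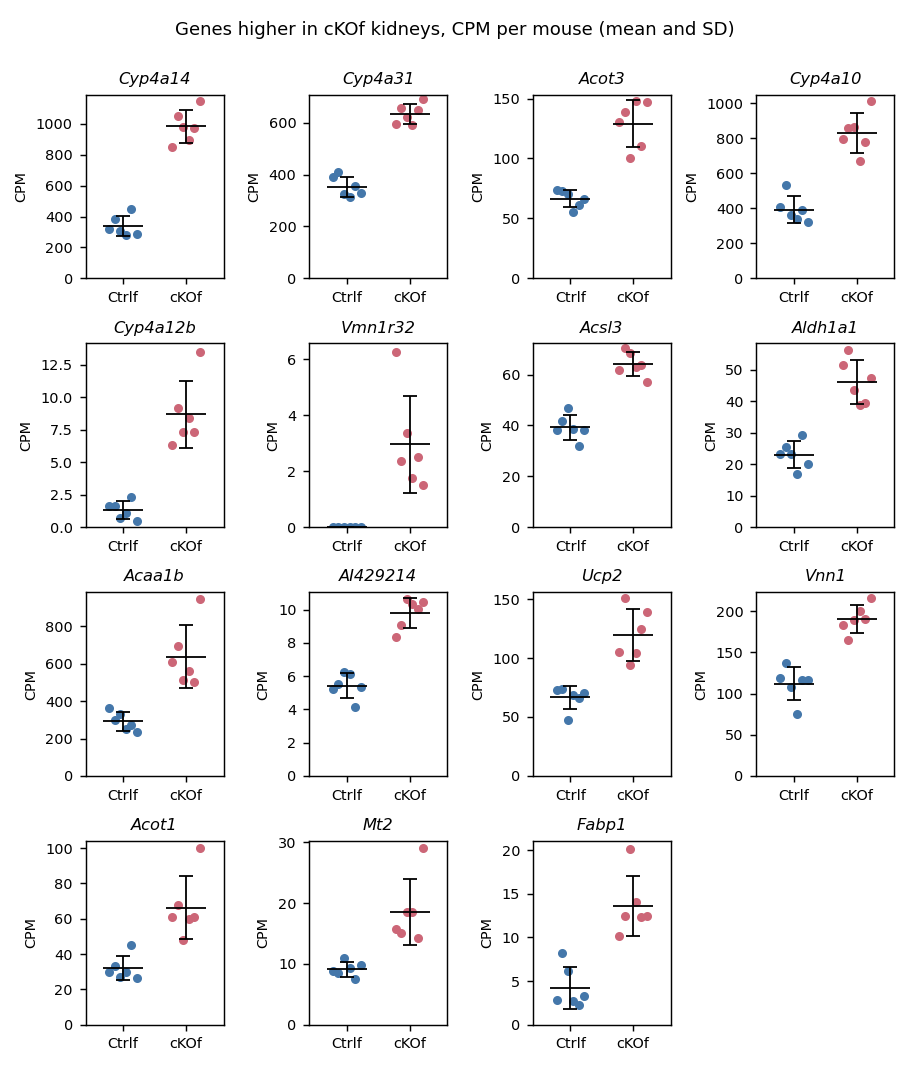
Level in CPM (linear axes from 0) of 15 of the 16 genes that were higher in cKOf kidneys, with 1 point per mouse, 6 Ctrlf in blue and 6 cKOf in red, and the mean with SD in black. In every panel each cKOf point lies above all Ctrlf points, as for Cyp4a14 with at most 448.5 CPM in Ctrlf and at least 851.5 CPM in cKOf kidneys.

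The Cyp4a genes, on chromosome 4, held the 2 smallest p values, those of Cyp4a14 and Cyp4a31. Cyp4a14 was between 283 and 448.5 CPM in Ctrlf (median 313) and between 851.5 and 1146 CPM in cKOf kidneys (median 976), a log2 fold change of 1.54 ± 0.12 (SE, edgeR adjusted p = 9.16e-06). This was a 2.91-fold rise without any overlap. Cyp4a10 was between 319 and 531 CPM in Ctrlf (median 376) and between 671 and 1014 CPM in cKOf kidneys (median 826), with a log2 fold change of 1.08 ± 0.12 (SE, edgeR adjusted p = 4.81e-04). Cyp4a31 was between 315 and 409 CPM in Ctrlf (median 342) and between 589.5 and 690 CPM in cKOf kidneys (median 634), with a log2 fold change of 0.84 ± 0.08 (SE, edgeR adjusted p = 1.72e-04). Cyp4a12b, the mouse enzyme that makes 20-HETE from arachidonic acid together with its copy Cyp4a12a, was far lower in count. It was between 0.444 and 2.33 CPM in Ctrlf (10 to 70 counts) and between 6.30 and 13.5 CPM in cKOf kidneys (127 to 267 counts), with a log2 fold change of 2.71 ± 0.31 (SE, edgeR adjusted p = 4.81e-04). Cyp4a12a moved by 1.93 ± 0.42 (SE), but the groups overlapped and its edgeR adjusted p was 0.0989. Cyp4a32, the remaining counted member, had a log2 fold change of 0.17 ± 0.32 (SE, edgeR adjusted p = 0.997).

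These genes are close copies of each other. The longest GENCODE transcript of Cyp4a12b aligned over its whole length with Cyp4a12a (at least 95% identity over at least 100 bases), that of Cyp4a10 over 75.5% with Cyp4a31 and Cyp4a32, and that of Cyp4a31 over 67.3% with other genes, Cyp4a10 and Cyp4a32 first. Cyp4a14 had no such match. The authors' counting set aside reads that aligned to more than 1 place, which were between 26.9% and 30.5% of the alignments in female kidneys. How the rise divides among Cyp4a10, Cyp4a31 and Cyp4a12a or Cyp4a12b is therefore uncertain, while that of Cyp4a14 rests on its own sequence.

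Thioesterases and the peroxisomal thiolase rose as well. Acot3 on chromosome 12, which cleaves long-chain acyl-CoA in the peroxisome, was between 55.3 and 73.5 CPM in Ctrlf (median 68.2) and between 100.5 and 148 CPM in cKOf kidneys (median 134.5), a log2 fold change of 0.96 ± 0.11 (SE, edgeR adjusted p = 4.81e-04). Acot1, its cytosolic relative, was between 26.2 and 45.0 CPM in Ctrlf (median 30.0) and between 48.1 and 100.3 CPM in cKOf kidneys (median 60.9), a log2 fold change of 1.05 ± 0.16 (SE, edgeR adjusted p = 0.00820). Neither gene overlapped between the groups, though for Acot1 the lowest cKOf kidney was close to the highest Ctrlf kidney. Acaa1b on chromosome 9, a thiolase that releases acetyl-CoA in the last step of peroxisomal oxidation, was between 234 and 366 CPM in Ctrlf (median 286) and between 505 and 948 CPM in cKOf kidneys (median 586), a log2 fold change of 1.13 ± 0.15 (SE, edgeR adjusted p = 0.00235). Its transcript shared 95.3% of its length with other genes, foremost Acaa1a, whose own log2 fold change was 0.11 ± 0.11 (SE, edgeR adjusted p = 0.982). Acot3 overlaps an antisense gene, 4732463B04Rik, with a log2 fold change of -0.07 ± 0.16 (SE), and Acot1 shared 31.6% with Acot2, which had a log2 fold change of 0.61 ± 0.14 (SE, edgeR adjusted p = 0.159).

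Genes that bind or activate fatty acids, or act in mitochondria, were also higher. Acsl3, which joins fatty acids to CoA at the endoplasmic reticulum and lipid droplets, was between 31.75 and 47.0 CPM in Ctrlf (median 38.5) and between 57.2 and 70.4 CPM in cKOf kidneys (median 63.4), a log2 fold change of 0.71 ± 0.09 (SE, edgeR adjusted p = 0.00176). Fabp1 was between 2.26 and 8.18 CPM in Ctrlf (median 3.04) and between 10.1 and 20.1 CPM in cKOf kidneys (median 12.4), a log2 fold change of 1.69 ± 0.29 (SE, edgeR adjusted p = 0.0181). Fabp1 is also an abundant liver transcript, and its edgeR adjusted p was 0.0281 in the fit with the level of hepatocyte markers as a covariate. The call was lost without the 3 libraries that stood apart (edgeR adjusted p = 0.09), without the 5 libraries with high muscle markers (edgeR adjusted p = 0.215) and in the model of 4 groups (edgeR adjusted p = 0.384). Ucp2, an inner mitochondrial membrane carrier, was between 47.6 and 74.2 CPM in Ctrlf (median 69.5) and between 94.1 and 151 CPM in cKOf kidneys (median 115), a log2 fold change of 0.85 ± 0.13 (SE, edgeR adjusted p = 0.00695). Vnn1, the pantetheinase that frees pantothenate for reuse in CoA synthesis, was between 75.8 and 138 CPM in Ctrlf (median 116) and between 165 and 216 CPM in cKOf kidneys (median 190), a log2 fold change of 0.76 ± 0.12 (SE, edgeR adjusted p = 0.00695). None of these 4 genes overlapped between the groups. Without the 5 libraries with high muscle markers Ucp2 (edgeR adjusted p = 0.135) and Vnn1 (edgeR adjusted p = 0.0556) also lost the call, while Acsl3 kept it.

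Promoter sequence was at hand for 9 of the 16 risen genes. That of Fabp1 is shown because it holds a pair of the motif that PPAR alpha with RXR binds in tandem, and those of Acaa1b and Acot1 because they hold the motif without such a pair. The motif searched was AGGNCA on both strands, in the 300 bases from 250 before to 50 after the gene start (RefSeq, build GRCm38.p6). It was present in 57.3% of 27025 promoters, in 8 of the 9 risen genes and in 3 of 5 genes that fell. A pair in the same direction separated by 1 base was present in 0.392% of promoters and, among the 14 promoters of called genes, in that of Fabp1 alone, where it begins at position -67. In the following sequences, read 5′ to 3′ along the gene, capitals mark each match of AGGNCA or of its reverse complement TGNCCT. The Fabp1 promoter, at chr6:71199629-71199928 on the plus strand, held 4 matches, a number reached by 1.86% of promoters. The Acaa1b promoter, at chr9:119157044-119157343 on the minus strand, and the Acot1 promoter, at chr12:84009252-84009551 on the plus strand, held 2 each.
Fabp1: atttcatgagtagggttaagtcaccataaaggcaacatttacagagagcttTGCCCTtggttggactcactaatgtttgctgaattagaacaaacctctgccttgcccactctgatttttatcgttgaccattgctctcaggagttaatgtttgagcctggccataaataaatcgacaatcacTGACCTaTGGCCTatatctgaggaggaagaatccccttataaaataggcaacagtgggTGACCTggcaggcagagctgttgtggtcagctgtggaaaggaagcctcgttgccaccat
Acaa1b: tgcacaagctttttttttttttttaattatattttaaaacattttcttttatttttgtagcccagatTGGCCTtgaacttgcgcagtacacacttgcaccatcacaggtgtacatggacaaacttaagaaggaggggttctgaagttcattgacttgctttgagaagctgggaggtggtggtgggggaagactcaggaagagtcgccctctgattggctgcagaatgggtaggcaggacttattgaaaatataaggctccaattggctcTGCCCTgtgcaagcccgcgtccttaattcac
Acot1: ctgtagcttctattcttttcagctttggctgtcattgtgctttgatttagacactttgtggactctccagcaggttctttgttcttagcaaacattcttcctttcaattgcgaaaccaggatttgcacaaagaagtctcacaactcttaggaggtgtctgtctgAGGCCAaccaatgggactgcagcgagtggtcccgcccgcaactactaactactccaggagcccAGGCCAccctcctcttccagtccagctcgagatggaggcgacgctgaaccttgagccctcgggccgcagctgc

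A list of 42 PPAR alpha targets held most of the risen genes. It was drawn up with earlier results of these data known, so its shares are a description and no test. Of its 38 tested members, 10 passed the threshold and all 10 were higher in cKOf kidneys, which is 26.3% of the members against 0.171% of all tested genes. The 10 were Cyp4a10, Cyp4a12b, Cyp4a14, Cyp4a31, Acot1, Acot3, Acaa1b, Fabp1, Ucp2 and Vnn1. The median log2 fold change was 0.47 over the members and -0.0014 over all tested genes, and 36 of 38 members had a log2 fold change above 0. At an unadjusted p of 0.05, 28 members were higher and 0 lower (2.32% and 3.65% of all genes). DESeq2 called 16 members higher and 0 lower, and 41 higher and 42 lower over all 14035 tested genes. Members that did not pass included some with large but uneven differences, chosen here after their values were seen. Angptl4, a secreted lipase inhibitor, had a log2 fold change of 1.35 ± 0.37 (SE, edgeR adjusted p = 0.332) and Pdk4, a brake on glucose oxidation, one of 1.04 ± 0.32 (SE, edgeR adjusted p = 0.463). Without 3 libraries that stood apart 9 members were called higher and the median was 0.36. Over all 13745 genes tested in that fit, 18 were called higher and 16 lower. Without the 5 libraries with high muscle markers 5 of 35 tested members were called higher and the median was 0.41. Over all 13352 genes tested there, 11 were called higher and 2 lower.

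**Figure D3:**
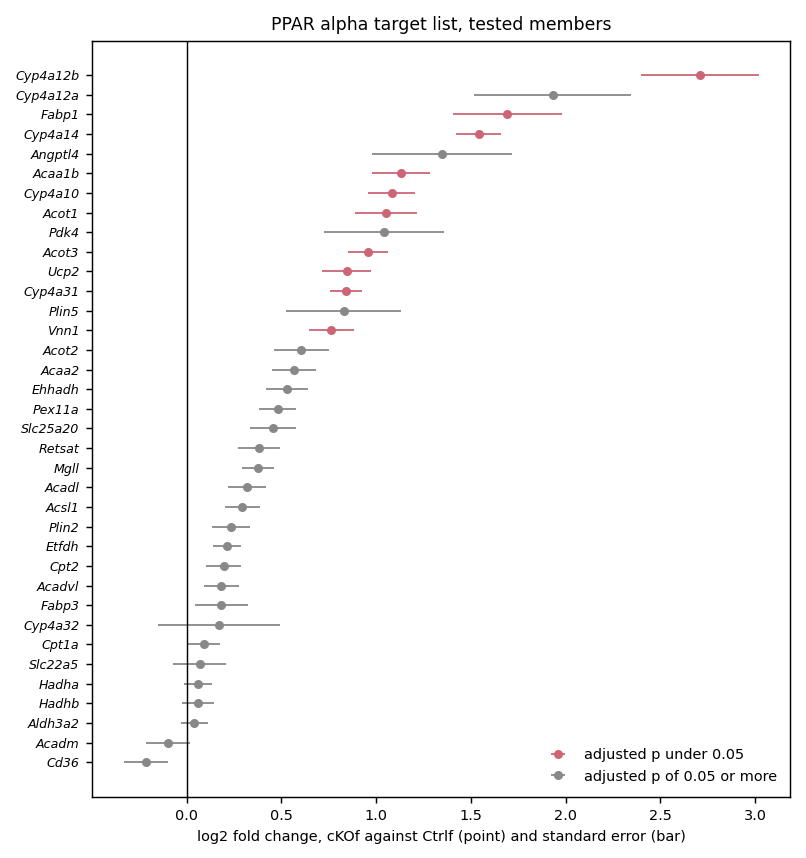
Log2 fold change of cKOf against Ctrlf kidneys for 36 of the 38 tested members of the PPAR alpha target list, in order of size, with 6 kidneys per group and bars for the standard error. The 10 members in red had an edgeR adjusted p under 0.05 and all lie above 0, the members in grey did not pass, and Acadm and Cd36 lie below 0.

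Peroxisomal genes were grouped in 5 lists, with the acyl-CoA thioesterases outside the peroxisome, such as Acot1, among them. These lists too were drawn up with earlier results of these data known. Over the lists of peroxins, peroxisomal oxidation, thioesterases and acyltransferases, plasmalogen metabolism and other peroxisomal enzymes, 92 genes were tested, 3 were called higher (Acot1, Acot3 and Acaa1b) and 0 lower, with a median log2 fold change of 0.03. This is 3.26% of them, against 0.171% of all tested genes. In the same fit, 21 were higher and 6 lower at an unadjusted p of 0.05, against 2.32% and 3.65% of all tested genes. DESeq2 called 4 higher and 1 lower in peroxisomal oxidation and 5 higher and 1 lower among thioesterases and acyltransferases. Over all 14035 tested genes DESeq2 called 41 higher and 42 lower. Of the 16 tested peroxins, 0 were called by edgeR, 1 was higher and 1 lower at an unadjusted p of 0.05, and 1 was called higher by DESeq2. Pex11a, which promotes division of peroxisomes, was between 37.3 and 50.04 CPM in Ctrlf (median 45.4) and between 51.2 and 70.2 CPM in cKOf kidneys (median 62.6). These ranges did not overlap, but the log2 fold change of 0.48 ± 0.10 (SE) had an edgeR adjusted p of 0.0681.

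In peroxisomal oxidation, Ehhadh, the bifunctional enzyme of the straight-chain pathway, was between 440 and 697 CPM in Ctrlf (median 561) and between 734 and 916.5 CPM in cKOf kidneys (median 802.5), a log2 fold change of 0.53 ± 0.11 (SE, edgeR adjusted p = 0.0805). Abcd3, a membrane transporter of fatty acyl-CoA, had 0.41 ± 0.09 (SE, edgeR adjusted p = 0.128) and Hsdl2, a dehydrogenase-like protein, 0.42 ± 0.11 (SE, edgeR adjusted p = 0.212). Acox3, an oxidase of branched-chain substrates, had -0.30 ± 0.07 (SE, edgeR adjusted p = 0.159), with every cKOf kidney below every Ctrlf kidney, from at least 119 to at most 109.5 CPM. Among the other enzymes, Hao2, an oxidase of long-chain hydroxy acids, had -0.39 ± 0.09 (SE, edgeR adjusted p = 0.101), and Baat, which conjugates bile acids, had -1.51 ± 0.33 (SE, edgeR adjusted p = 0.101). Baat was 24.3 CPM in Ctrlf mouse 1, the kidney with high interferon-stimulated genes, and at most 9.29 CPM in the other Ctrlf kidneys. Of the 10 tested genes of plasmalogen synthesis and breakdown, 0 passed the threshold in edgeR, 0 had an unadjusted p under 0.05, and the values ran from -0.25 to 0.15 on the log2 scale.

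A further group of rises had other known roles. Aldh1a1, a retinaldehyde dehydrogenase, was between 16.8 and 29.3 CPM in Ctrlf (median 23.4) and between 38.89 and 56.5 CPM in cKOf kidneys (median 45.5), a log2 fold change of 1.00 ± 0.13 (SE, edgeR adjusted p = 0.00176). AI429214, a gene without a role that can be given here, rose from between 4.12 and 6.24 CPM to between 8.34 and 10.6 CPM (log2 fold change 0.85 ± 0.13 SE, edgeR adjusted p = 0.00684).

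Mt2, a metallothionein that binds zinc and copper, was between 7.45 and 10.9 CPM in Ctrlf (median 9.04) and between 14.3 and 29.1 CPM in cKOf kidneys (median 17.2). The log2 fold change was 1.03 ± 0.16 (SE, edgeR adjusted p = 0.00960), and the highest value, in cKOf mouse 6, stood apart from the next at 18.6 CPM. Mt2 shares 41.5% of its transcript with an overlapping antisense gene, Gm45774, which had at most 5 counts in a kidney. Its promoter is printed because metallothionein genes are regulated through metal response elements near the start. The core searched was TGCACNC or TGCGCNC on both strands. It matched 4 times in the Mt2 promoter, at chr8:94172368-94172667 on the plus strand (RefSeq, GRCm38.p6), where capitals mark the matches of the core or its reverse complement, and 0.5% of the 27025 promoters held 4 or more.
Mt2: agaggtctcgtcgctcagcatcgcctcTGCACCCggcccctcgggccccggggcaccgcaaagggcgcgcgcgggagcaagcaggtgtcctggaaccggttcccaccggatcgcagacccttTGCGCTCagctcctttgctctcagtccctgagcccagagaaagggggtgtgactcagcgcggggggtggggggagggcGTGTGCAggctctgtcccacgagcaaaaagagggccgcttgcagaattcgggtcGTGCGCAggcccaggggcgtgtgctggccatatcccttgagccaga

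Vmn1r32, a vomeronasal pheromone receptor gene with no established role in kidney, was counted in cKOf kidneys alone. It had 0 counts in all 6 Ctrlf kidneys and 30, 33, 49, 62, 74 and 126 counts in the 6 cKOf kidneys, at least 19.98-fold higher in reference to a floor of 3 counts in the shallowest Ctrlf library (edgeR adjusted p = 4.81e-04). Vmn1r32 passed the filter of 6 kidneys only through the cKOf group, where it was high. This p value is therefore no independent support, and the counts are given as a description. The same pattern was present in males, with 0 counts over the Ctrlm and 666 over the cKOm kidneys. The gene lies on chromosome 6 from 66552180 to 66560096 on the minus strand, on the chromosome that also carries Pex5. Of 8 other tested genes within 1 Mb on either side, 0 were called by edgeR, and the lowest adjusted p was 0.825. The nearest, Mad2l1 (66535390 to 66547220), had a log2 fold change of -0.36.

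Gpt2, Bhmt and Hpd, which act on amino acids, were among the 8 genes that fell. Gpt2, the mitochondrial alanine transaminase, was between 80.2 and 123 CPM in Ctrlf (median 87.1) and between 44.7 and 67.1 CPM in cKOf kidneys (median 55.9), a log2 fold change of -0.76 ± 0.12 (SE, edgeR adjusted p = 0.00824). Bhmt, which remethylates homocysteine with betaine, was between 20.4 and 54.3 CPM in Ctrlf (median 24.1) and between 6.83 and 15.5 CPM in cKOf kidneys (median 9.91), a log2 fold change of -1.45 ± 0.25 (SE, edgeR adjusted p = 0.0194). Hpd, a dioxygenase of tyrosine breakdown, was between 99.7 and 319 CPM in Ctrlf (median 160) and between 43.1 and 109.5 CPM in cKOf kidneys (median 61.3), a log2 fold change of -1.48 ± 0.27 (SE, edgeR adjusted p = 0.0346). Hpd was the only called gene whose groups overlapped, since 1 cKOf kidney lay above the lowest Ctrlf kidney. Hpd and Bhmt are also abundant in liver. Summed hepatocyte markers did not split by genotype, and with them as a covariate Hpd had an edgeR adjusted p of 0.0518 and Bhmt one of 0.00719. In that fit Sema4d, another of the genes that fell, had an edgeR adjusted p of 0.0518 as well.

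The remaining falls were of mixed kind. Hmcn2, an extracellular matrix protein of the hemicentin family, was between 5.87 and 14.1 CPM in Ctrlf (median 8.23) and between 2.86 and 4.66 CPM in cKOf kidneys (median 3.82), a log2 fold change of -1.27 ± 0.20 (SE, edgeR adjusted p = 0.00824). Sema4d, a semaphorin, was between 87.7 and 105 CPM in Ctrlf (median 103) and between 68.7 and 82.0 CPM in cKOf kidneys (median 72.3), and its log2 fold change of -0.42 ± 0.08 (SE, edgeR adjusted p = 0.0346) was the smallest in size among the called genes. Dnajc12, a co-chaperone of aromatic amino acid hydroxylases, was between 47.2 and 74.9 CPM in Ctrlf (median 54.0) and between 32.4 and 43.3 CPM in cKOf kidneys (median 36.5), with -0.65 ± 0.12 (SE, edgeR adjusted p = 0.0356). Fgl1, a secreted fibrinogen-like protein, and Gm6135, a predicted gene, were low in count. Fgl1 fell by 1.02 on the log2 scale from between 93 and 164 counts to between 42 and 77 counts (edgeR adjusted p = 0.0346), and Gm6135 fell by 1.27 from between 101 and 278 to between 42 and 84 counts (edgeR adjusted p = 0.0217). Leaving out each mouse in turn, 17 of the 24 called genes kept an adjusted p under 0.05 in every fit that tested them, and the other 7 were Fabp1 and 6 of the genes that fell. Of the 12 such fits, Fabp1 kept its call in 10, losing it without Ctrlf mouse 6 (edgeR adjusted p = 0.0503) or cKOf mouse 3 (edgeR adjusted p = 0.0603). Bhmt kept it in 9 fits, Gm6135 and Dnajc12 in 5, Hpd and Sema4d in 4, and Fgl1 in 3. The highest edgeR adjusted p was 0.0812 for Bhmt and 0.0823 for Gm6135, each without cKOf mouse 2, 0.117 for Sema4d and 0.116 for Fgl1, each without cKOf mouse 3, and 0.120 for Hpd and 0.134 for Dnajc12, each without cKOf mouse 5.

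**Figure D4:**
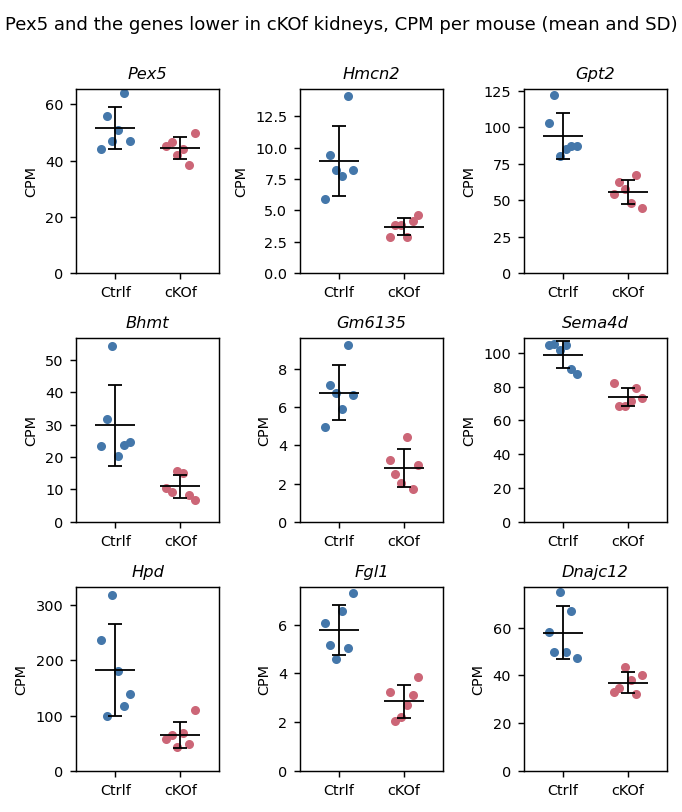
Level in CPM (linear axes from 0) of Pex5 and of the 8 genes that were lower in cKOf kidneys, with 1 point per mouse, 6 Ctrlf in blue and 6 cKOf in red, and the mean with SD in black. Pex5 overlaps between 44.1 and 49.8 CPM, Hpd overlaps in 1 cKOf mouse at 109.5 CPM, and the other genes do not overlap.

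Tubule transport and cell markers gave no call in edgeR. Of 48 tested genes of proximal tubule transport and endocytosis, 0 were called, but 9 were lower and 1 higher at an unadjusted p of 0.05 (3.65% and 2.32% of all genes), and the median log2 fold change was -0.15 with 11 of 48 above 0. The proximal sodium-sulfate cotransporter Slc13a1 had -0.72 ± 0.16 (SE, edgeR adjusted p = 0.106), chosen after its value was seen. DESeq2 called 1 member lower, against 42 lower over all 14035 tested genes. The summed proximal tubule markers, between 8097 and 9369 CPM in Ctrlf and between 7093 and 8513 CPM in cKOf kidneys, overlapped (two-sided exact permutation p = 0.0931, n = 6 each). Without the 5 libraries with high muscle markers the median of the transport list was -0.05. Slc4a1, the chloride-bicarbonate exchanger of acid-secreting intercalated cells, had -0.71 ± 0.14 (SE, edgeR adjusted p = 0.0559) and Aqp6, a channel of the same cells, -0.48 ± 0.10 (SE, edgeR adjusted p = 0.0681), with no overlap for either and chosen after their values were seen. The summed markers of intercalated cells, Slc4a1 among them, were between 267 and 316 CPM in Ctrlf and between 260.0 and 318 CPM in cKOf kidneys. Of 35 tested genes of thick limb and distal transport, which include Slc4a1, 0 were called by edgeR. Their median log2 fold change was 0.045, with 23 of 35 above 0. At an unadjusted p of 0.05, 0 were higher and 1, Slc4a1, was lower (2.32% and 3.65% of all genes). DESeq2 called 1 of these genes lower, against 42 of all 14035 tested genes.

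Of 21 tested genes of ammoniagenesis, gluconeogenesis and glyoxylate metabolism, 0 were called by edgeR. At an unadjusted p of 0.05, 7 were lower and 1 higher (3.65% and 2.32% of all genes). DESeq2 called 1 lower, against 42 of all 14035 tested genes. The urea cycle enzyme Ass1 had -0.43 ± 0.12 (SE, edgeR adjusted p = 0.356) and was chosen after its value was seen. Mitochondrial oxidation and ketogenesis had 0 calls among 26 tested genes in edgeR, with 8 higher and 1 lower at an unadjusted p of 0.05 (2.32% and 3.65% of all genes). DESeq2 called 2 of them higher, against 41 of all 14035 tested genes. The thiolase Acaa2, chosen after its values were seen, was between 155 and 238 CPM in Ctrlf and between 264 and 382.5 CPM in cKOf kidneys (log2 fold change 0.57 ± 0.12 SE, edgeR adjusted p = 0.0681). Lists of glutathione enzymes, NRF2 targets, oxidative phosphorylation, extracellular matrix, tubular injury, circadian clock and immediate early genes held 0 calls each in edgeR. At an unadjusted p of 0.05 these 7 lists held between 0 and 3 genes each, and their medians lay between -0.06 and 0.20.

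The size of the change in the immune lists depended on 1 kidney, Ctrlf mouse 1. All 34 tested interferon-stimulated genes had a negative log2 fold change, with a median of -0.68, 13 lower at an unadjusted p of 0.05 (3.65% of all genes) and 0 called by edgeR or DESeq2. Without Ctrlf mouse 1, 9 of 34 were above 0, the median was -0.11 and 2 were lower at an unadjusted p of 0.05. The list of inflammation and macrophage genes had a median of -0.45 over 18 tested members with all kidneys and -0.17 without Ctrlf mouse 1, again with 0 calls. In both fits 2 of the 18 were above 0. In male kidneys 11 of 34 interferon-stimulated genes were called lower and 1 higher (median -0.30). Of the 18 inflammation genes 8 were called lower and 0 higher in males (median -0.58), where 14.7% of all genes were called.

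The rise of the 16 genes was present in each of the cKOf mice. As a description, since the genes were chosen by the same contrast, their median shift from the Ctrlf mean on the log2(CPM + 0.5) scale was between 0.90 and 1.28 in the 6 cKOf kidneys and between -0.12 and 0.15 in the 6 Ctrlf kidneys. The highest value was in cKOf mouse 6, which held the top cKOf level for 8 of the 16 genes and is also 1 of the 2 kidneys with the lowest share of reads outside genes, 4.45%, the other being Ctrlf mouse 4 with 4.75% against at least 5.64% in the other 10. The 8 fallen genes had median shifts between -1.16 and -0.72 in cKOf kidneys.

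The male kidneys of the same study, 6 Ctrlm and 6 cKOm fitted on their own, gave 2048 calls among 13920 genes (14.7%). Of the 24 genes called in females, 20 were also called in males, all in the same direction, 14 higher and 6 lower. This is 83.3% of the female list and 0.994% of the male calls that were tested in both sexes. Over those 2013 male calls, the median change in the male direction was 0.47 in males and 0.07 in females, on the log2 scale. The male contrast chose these genes and their directions, which favours the male median, so the pair is a description. The PPAR alpha list had a median of 0.47 in females and 0.45 in males, where 24 members were higher and 3 lower past the threshold. The test of the difference between the sexes used 1 model of all 24 kidneys and called 373 of 14581 genes (2.56%), 5 of which were among the 24 female calls.

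For these 5, values of each sex come from its own scaling. Cyp4a14 rose by less in females. Its level was 54.4 ± 80.0 CPM in Ctrlm and 338 ± 65.2 CPM in Ctrlf kidneys, and cKOm kidneys reached 1080 ± 127 CPM and cKOf kidneys 983 ± 106 CPM (SD, n = 6). Its female minus male difference was -2.77 ± 0.69 (SE, edgeR adjusted p = 0.0252). Acot3 differed by -1.01 ± 0.21 (SE, edgeR adjusted p = 0.00591) and Aldh1a1 by -1.04 ± 0.24 (SE, edgeR adjusted p = 0.0117), both with the larger rise in males. Dnajc12 fell by 0.65 in females and by 1.33 in males, a difference of 0.69 ± 0.17 (SE, edgeR adjusted p = 0.0277). Mt2 rose in females and had a log2 fold change of -0.04 ± 0.21 (SE) in males, a difference of 1.08 ± 0.28 (SE, edgeR adjusted p = 0.0337). Fabp1 was called in females only, but its male change of -0.17 had a standard error of 0.60, and the difference of 1.87 ± 0.76 did not pass (SE, edgeR adjusted p = 0.245).

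**Figure D5:**
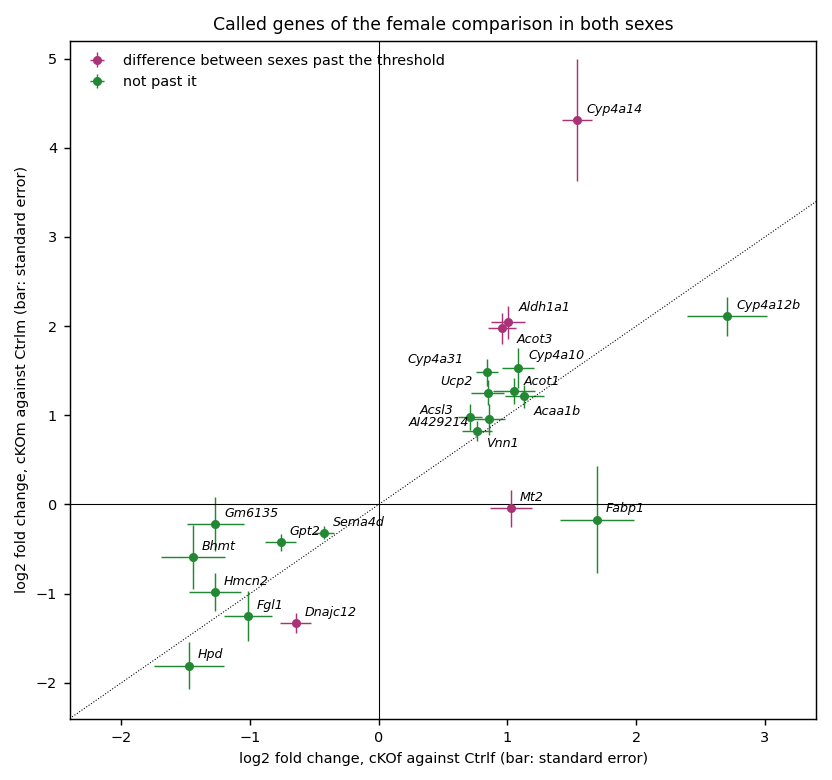
Log2 fold change in females (x axis) and in males (y axis) of 22 of the 24 genes called in females, Vmn1r32 being left out, with standard errors as bars, 6 kidneys per group, and a dotted line of equal change. The 5 genes in purple (Cyp4a14, Acot3, Aldh1a1, Mt2 and Dnajc12) differed between the sexes past the threshold, and Mt2 and Fabp1 lie near 0 on the male axis.

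Genes that differ between male and female mouse kidney were looked at as a list, since Cyp4a12a, Cyp4a12b and Cyp4a14 belong to it. Of 18 tested members, Cyp4a12b and Cyp4a14 were called higher and 0 lower in females, against 0.171% of all genes, with a median log2 fold change of -0.05, whereas in males 5 were higher and 11 lower with a median of -1.29. Cyp4a12a, which is higher in male kidney, had a log2 fold change of 1.93 in females and -0.57 in males (Ctrlm 68.3 ± 46.1, cKOm 45.8 ± 5.47 CPM, SD, n = 6), neither past the threshold in its own fit, and the difference between the sexes of 2.51 ± 0.54 passed (SE, edgeR adjusted p = 0.00681). With all 24 kidneys scaled together, Cyp4a12a was 147 and 111 CPM in Ctrlm mice 3 and 5. It was between 36.5 and 44.1 CPM in the other Ctrlm kidneys. Its copy Cyp4a12b rose in males too, by 2.11 ± 0.22 (SE, edgeR adjusted p = 6.02e-06). For Cyp4a12b the difference between the sexes was 0.59 ± 0.38 (SE, edgeR adjusted p = 0.522). How reads divide between these copies is uncertain. Acox3, Acot2 and Phyh, like Cyp4a12a, differed between the sexes past the threshold, by 0.76, -0.85 and 0.47.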

How the data were processed

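Whole kidneys were profiled by stranded mRNA sequencing. Per the submitters' processing notes the authors used cutadapt 1.8, STAR 2.5.3a, HTSeq 0.9.1 and build GRCm38, and deposited raw read counts per gene for each kidney; the strand setting of HTSeq is not given in the sources used here. The 5 closing lines of each file (no feature, 4.45% to 6.66% of records in female kidneys, not unique and others) were set aside. Genes that reached 1 CPM in 6 or more kidneys were kept, scaled by TMM and tested with the quasi-likelihood test of edgeR 4.0.16 in R 4.3.3, for the sexes apart. The interaction came from 1 model of 24 kidneys. The standard error is the size of the log2 fold change divided by the square root of F. P values were adjusted by Benjamini-Hochberg with a threshold of 0.05. Some genes are not reported here. Named by rule were Pex5, all called genes, genes at 0 counts in 1 genotype, and Acot, Cyp4a and peroxisomal list members at an unadjusted p under 0.05. Members and lists were chosen with earlier results of these data known. The labels number the samples of a group and say no more of how they were obtained, so p values measure the spread between these samples. Exact permutation tests of 6 against 6 have 924 arrangements and a smallest two-sided p of 0.00216. Same-numbered kidneys did not deviate together (r from -0.25 to 0.0554). The 3-count floor covers counting error only. Alternatives included DESeq2 1.42.0 and limma-voom (limma 3.58.1), other scaling and filters, a replicate block, hepatocyte markers as covariate, and each mouse left out with the filter of 6 kidneys kept. Shared transcript sequence was found with BLAST 2.17.0. The fits were tested on simulated data.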

Additional observations from a re-analysis of the deposited data

Results flagged for a closer look

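Among 130 groups of 6 kidneys, 13 (10%) held a value that stood apart from the others by Dixon's test, where chance gives about 1 in 20. Of the called genes, Ucp2 was 47.6 CPM in Ctrlf mouse 3, Bhmt 54.3 CPM in Ctrlf mouse 3 and Mt2 29.1 CPM in cKOf mouse 6. Of the peroxisomal genes that were not called, Baat was 24.3 CPM in Ctrlf mouse 1, Dhrs4 268 CPM and Eci2 131 CPM in cKOf mouse 6, and Idh1 457 CPM in cKOf mouse 3. Of the marker sums, adipocyte markers were 396 CPM and urothelial markers 26.0 CPM in Ctrlf mouse 6, skeletal muscle markers 551 CPM in Ctrlf mouse 4, interferon-stimulated genes 3520 CPM in Ctrlf mouse 1, and endothelial markers 347 CPM in cKOf mouse 6. The library of Ctrlf mouse 5 was the deepest, with 27400000 counts on genes after rounding.

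The change with genotype differed between the sexes for 9 of the named genes by the interaction test of edgeR. The female minus male difference on the log2 scale was -2.77 for Cyp4a14, -1.01 for Acot3, -1.04 for Aldh1a1, 1.08 for Mt2 and 0.688 for Dnajc12 among the called genes. It was 2.51 for Cyp4a12a, -0.846 for Acot2, 0.763 for Acox3 and 0.468 for Phyh among peroxisomal genes and omega-hydroxylases that were not called in females.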

How the results depend on the processing

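The count of 24 genes (16 higher, 8 lower) stayed at 24, with all 24 shared, under RLE scaling, a filter of 1 CPM in at least 1 kidney and limma-voom. It was 40 without a filter (20 higher, 20 lower), 83 with DESeq2 (41 higher, 42 lower), 43 in the model of 4 groups and 136 when adjusted over both sexes there, and, in fits chosen after seeing the data, 13 without the 5 libraries with high muscle markers (11 higher, 2 lower) and 34 without the 3 libraries that stand apart (18 higher, 16 lower). Leaving out each mouse in turn gave between 17 and 33 calls. With the replicate block there were 22 calls (18 higher, 4 lower), 19 of them shared. In that fit 5 fallen genes lost the call. Their edgeR adjusted p was 0.0841 for Dnajc12, 0.0595 for Fgl1, 0.133 for Gm6135, 0.109 for Hpd and 0.198 for Sema4d. Same-numbered kidneys did not deviate together, and why these genes lost the call was not tested. The interaction count of 373 was 570 with DESeq2, 291 with the replicate block and between 293 and 468 with each mouse left out. The log2 fold change of Pex5 lay between -0.14 and -0.26 with each mouse left out, was -0.31 without the 3 libraries that stand apart and -0.21 with the replicate block. The edgeR adjusted p of Cyp4a14 was 0.327 and that of Fabp1 0.384 in the model of 4 groups. Of the 24 genes, 8 kept an adjusted p under 0.05 under each alternative and each mouse left out where they had a value. Vmn1r32 had none where fewer than 6 cKOf kidneys remained, and Cyp4a12b had none without the 5 libraries with high muscle markers. The cause of these shifts was not tested. List medians near 0 changed sign: without the 3 libraries that stand apart those of oxidative phosphorylation (0.03 to -0.07), peroxins (0.03 to -0.03) and other peroxisomal enzymes (0.04 to -0.04), and without the 5 libraries with high muscle markers those of other peroxisomal enzymes (to -0.02), clock genes (-0.03 to 0.02) and the sex list (-0.05 to 0.01). The median of immediate early genes was 0.20, 0.47 and 0.58 in the 3 fits.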
